A study of Mus musculus with 8 samples.

Results

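The 41 genes described here act in the G2 phase of the cell cycle and in mitosis, and they were chosen by name from the 23366 genes of the deposited table. The RNA-seq libraries came from macrophages grown in culture out of the bone marrow of C57BL/6 mice. The cells were wild type or carried the Lsd1SA/SA knock-in on both alleles, in which the histone demethylase LSD1 is defective in phosphorylation. All groups were at passage 1 and had been kept without serum for 24 h. Each genotype was left untreated or was given LPS, a bacterial lipopolysaccharide that activates macrophages, for 2 h at a label dose of 1 mg/ml. Each of the 4 groups had 2 libraries. No label ties the libraries of a group to different cultures or mice, and they may be technical replicates. Each p-value rests on the spread between libraries of the same group, pooled over the groups and drawn toward that of other genes.

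A cell enters mitosis when cyclin A and cyclin B activate the kinase CDK1, which the CDC25 phosphatases switch on. Chromosomes are then condensed and attached to the spindle, a checkpoint holds the cell until all kinetochores are attached, and the anaphase-promoting complex (APC/C) with CDC20 and UBE2C releases it. Most of these genes are transcribed mainly in cycling cells, with a peak in G2. Their promoters are bound by the MuvB complex, which acts as a repressor with the DREAM proteins in resting cells and as an activator with B-MYB and FOXM1 in G2. MuvB contacts the cell cycle genes homology region (CHR), close to the transcription start, and the factor NF-Y binds CCAAT boxes just upstream of it.

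The promoters show what the genes share beside their function. The RefSeq promoter table (build GRCm38.p6, from 250 bases before to 50 bases after each annotated start) held a window for 33 of the 41 genes (for Ect2 and Prc1, which have 2, the last listed is used). It was searched on both strands for the CHR (TTTGAA or TTCGAA), for CCAAT, and for 4 E2F motifs (TTTGGCGC, TTTCCCGC, TTTCGCGC and TTTGCCGC). Matches of different motifs may overlap, a CCAATTGG counts as a CCAAT on each strand, and TTCGAA reads alike on both. The 200 bases before the start of 6 genes that the results below turn on are given 5′ to 3′ on the gene's strand, with the CHR and CCAAT matches of either strand in capitals.
Cdk1, chr10:69352913-69353112, minus strand: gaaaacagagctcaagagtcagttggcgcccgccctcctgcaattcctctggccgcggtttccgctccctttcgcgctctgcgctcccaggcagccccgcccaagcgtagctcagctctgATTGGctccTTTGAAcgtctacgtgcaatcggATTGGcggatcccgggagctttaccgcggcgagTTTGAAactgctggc
Cdc20, chr4:118437344-118437543, minus strand: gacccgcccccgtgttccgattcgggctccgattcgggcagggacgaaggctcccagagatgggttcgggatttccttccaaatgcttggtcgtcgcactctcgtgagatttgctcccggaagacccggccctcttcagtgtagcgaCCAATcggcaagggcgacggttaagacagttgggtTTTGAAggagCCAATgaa
Ube2c, chr2:164769729-164769928, plus strand: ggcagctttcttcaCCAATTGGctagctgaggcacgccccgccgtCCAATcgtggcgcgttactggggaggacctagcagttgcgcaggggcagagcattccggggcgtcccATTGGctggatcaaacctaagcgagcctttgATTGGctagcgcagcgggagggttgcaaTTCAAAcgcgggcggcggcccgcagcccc
Top2a, chr11:99024190-99024389, minus strand: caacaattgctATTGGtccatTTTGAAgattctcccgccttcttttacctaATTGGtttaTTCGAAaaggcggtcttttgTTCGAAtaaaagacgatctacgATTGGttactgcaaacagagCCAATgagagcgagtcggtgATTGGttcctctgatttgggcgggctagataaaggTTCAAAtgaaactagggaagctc
Prc1, chr7:80294276-80294475, plus strand: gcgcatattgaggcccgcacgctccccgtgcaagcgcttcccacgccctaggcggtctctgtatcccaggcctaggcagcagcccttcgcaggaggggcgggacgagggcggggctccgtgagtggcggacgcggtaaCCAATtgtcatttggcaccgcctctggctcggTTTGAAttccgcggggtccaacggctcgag
Mki67, chr7:135716380-135716579, minus strand: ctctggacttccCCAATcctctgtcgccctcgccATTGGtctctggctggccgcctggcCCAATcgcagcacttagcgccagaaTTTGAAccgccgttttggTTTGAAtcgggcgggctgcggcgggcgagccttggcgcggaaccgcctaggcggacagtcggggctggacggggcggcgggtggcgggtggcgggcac
In Cdc20, Ube2c and Prc1 a single CHR lay at -18, -29 and -30 from the start, with a CCAAT match upstream of it at -53, -57 and -62. Cdk1 held a CHR at -15 and another at -71. Top2a had 4 CHR matches, the nearest at -23, and its CCAAT matches at -58, -78 and -98 were spaced evenly. Mki67 differed in its layout, with CHR matches at -98 and -116 and none nearer to the annotated start.

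A CHR was found in 27 of the 33 windows (81.8%), against 19.2% of all 32841 windows of that length in the table and 16.5% of the 8854 tested genes that had a window. CCAAT was found in 28 of 33 (84.8%), against 37.4% of all windows and 42.9% of the tested genes. Both were present in 25 of 33 (75.8%), against 7.52% of all windows and 6.97% of the tested genes. An E2F motif was found in 3 of 33 (9.09%), in Cdk1, Ncapd2 and Ncapg, against 2.27% of all windows and 4.82% of the tested genes. A CHR lay within 50 bases of the start, before or after it, in 24 of the 33 genes. In Aurka, Plk1 and Ttk the only CHR lay after the start, at 32, 30 and 7, and in Cdc20, Ube2c and Prc1 it lay before. The share of all windows with a CHR this near was not computed. Over the whole windows the median position was -17.5 for the 38 CHR matches and -78.5 for the 62 CCAAT matches. Birc5, Nusap1 and Mad2l1 held neither set of letters in this window. These matches describe the letters of the windows and were not shown to be sites of binding.

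**Figure D1:**
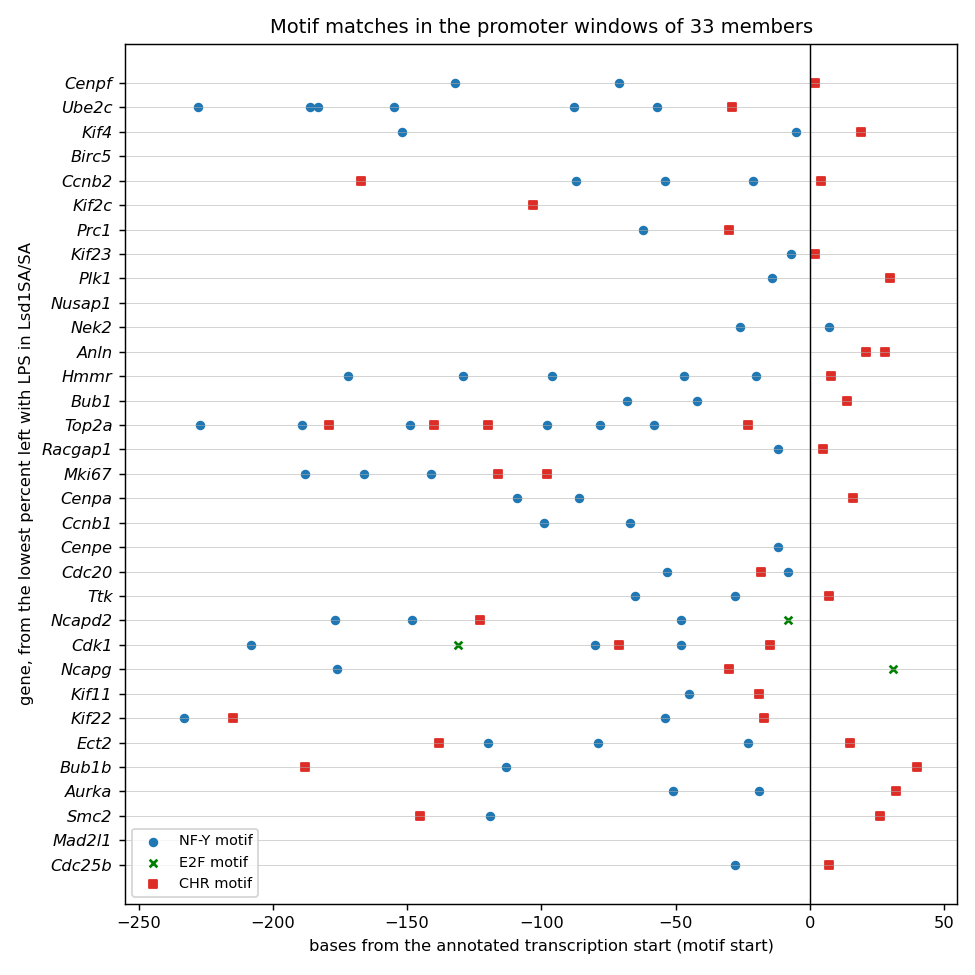
Position of each motif match (x axis, bases from the annotated start) in the windows of 33 genes (y axis, from the lowest percent of the untreated level left with LPS in the knock-in at the top). Red squares are CHR matches, blue points are CCAAT matches (labelled as the NF-Y motif) and green crosses are E2F matches. A CHR lay within 50 bases of the start, before or after it, in 24 of the 33 genes.

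The libraries held 40379258 to 55595160 reads. Values are scaled CPM, that is, reads per gene divided by a library size that the authors had multiplied by a normalization factor. All 41 genes reached a value of 1 in 6 or more of the 8 libraries, so each passed the filter on low values, and the fewest reads of any of them in a library was 10 (most low counts were even, so a fragment may have been counted as 2 reads). The 13 macrophage markers in the table, among them Csf1r and Cd68, were above 0 in all libraries, with a summed level of 15772 to 15933 in untreated wild type, 18990 to 19635 in wild type with LPS, 15643 to 16707 in untreated knock-in and 14084 to 14947 in knock-in with LPS. These sums hide moves in opposite directions. With LPS in the knock-in, 6 of the 13 fell (46.2%, against 28.3% of all tested genes) and 3 rose (23.1%, against 28.5%). With LPS, 8 were lower in the knock-in than in wild type (61.5%, against 36.8% of all tested genes). The 5 that were higher (38.5%) matched the share of all tested genes (38.5%). The markers ran from 4.78% of wild type for Cd14 to 646% for Cebpa. The knock-in libraries with LPS stood apart from the other 6. Xist, the X-inactivation transcript of female cells, was at 315 to 437 in the other 6 libraries and at 0.366 and 0.212 in these, and the Y-linked Ddx3y was at 27.3 and 27.4 in these and at 0.0503 or 0 in the others. The following genes of the early response to LPS, named after their values were seen, were also far lower there than in wild type with LPS. Tnf was at 26.8 and 27.4 in untreated wild type, 4039 and 3915 in wild type with LPS, 26.8 and 26.4 in untreated knock-in and 48.7 and 48.5 in knock-in with LPS. Il1b was at 2086 and 2318 in wild type with LPS and at 1.18 to 1.77 in all other libraries, and Nfkbia, which encodes an inhibitor of NF-kB, was at 66.6 and 68.4 in knock-in with LPS against 1402 and 1446 in wild type with LPS. The titles of these 2 libraries give the time without naming LPS, which another label names, and whether the labels are right was not tested. Knock-in with LPS here means the libraries so labelled. The animals behind them differed in sex from the others, and in each comparison that uses this group the effect of LPS or genotype and that difference between animals cannot be told apart.

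Markers of other cells also moved between untreated knock-in and knock-in with LPS, and some of them moved with LPS in wild type as well. Of 9 markers of monocytes and myeloid progenitors, 7 were tested and 4, among them Ly6c2 and Plac8, rose between untreated knock-in and knock-in with LPS, where 28.5% of all tested genes rose and 28.3% fell. The other 3 tested (Ccr2, Kit and Myb) had log2 changes below 0 that did not pass, with Myb at 70.1% of untreated knock-in. The summed level of the 9 was 322.5 and 329.4 with LPS against 49.2 to 57.1 in the other 6 libraries, and most of it was Ly6c2. Ly6c2, a surface protein of classical monocytes, read 27.7 and 28.0 in untreated knock-in and 234 and 244 with LPS. Without it the sum was 88.5 and 85.5 against 21.4 to 28.9 in the other 6. Of the stromal markers, 10 of 10 tested rose, with a summed level of 100.2 and 102.3 against 33.4 to 40.7 in the other 6. At most 1 gene of either list was at 0 in a library. Of the neutrophil markers, 9 of 12 rose (520.8 and 528.8 against 377.4 and 387.7 in untreated knock-in, and 786 and 806 in wild type with LPS). Of the mast cell and basophil markers, 6 of 6 tested rose (83.8 and 86.1 against 33.2 and 34.6, and 60.7 and 62.9 in wild type with LPS). Of 10 B and T cell markers 3 were tested and 2 fell, while Cd79a, at 157% of untreated knock-in, did not pass. The sum of the 10 was 50.2 and 46.9 against 77.6 and 76.2. Of 10 erythroid and megakaryocyte markers 3 were tested and 2 fell, and the sum of the 10 was 160.8 and 169.2 against 189.5 and 195.7. All sums of these lists are over the markers in the table, tested or not. With LPS in wild type, 8 of 12 neutrophil markers and 5 of 6 mast cell and basophil markers rose, and 0 fell. Over all tested genes 26.8% rose and 30.7% fell there. The part of other cells in the results below was not tested.

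In wild type, 2 h of LPS left most of the genes within a narrow range and raised 13 of the 41 (limma on log2(value + 1), Benjamini-Hochberg adjusted p under 0.05 over 11919 genes), while 2 fell and 26 did not pass the test. Over all tested genes 26.8% rose and 30.7% fell, so the share of these genes that rose (31.7%) was near the background and the share that fell (4.88%) was below it. The median log2 change was 0.12, beside -0.03 over all tested genes, and the range was -0.28 to 2.25. Leaving out replicate 1 of the untreated wild type moved the median to 0.057 and leaving out its replicate 2 moved it to 0.21, and 1 gene was called lower when replicate 2 of the LPS-treated wild type was left out. Under quantile normalization the share of higher calls among all called genes was 35.4%, against 46.6% in the main test.

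Mki67, whose product Ki-67 coats mitotic chromosomes and is the common marker of cycling cells, stood far from the rest. It read 53.7 and 61.8 in untreated wild type and 294 and 263 in wild type with LPS, a 4.82-fold rise (log2 change 2.25, SE 0.07, limma adjusted p = 3.68e-19). It was the only gene of the 41 with a mean at 2 times or more of the untreated mean, as were 7.27% of all tested genes. The next largest log2 changes in wild type were 0.61 for Prc1 and 0.54 for Aurka.

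In the knock-in, all 41 genes fell with LPS, against 28.3% of all tested genes that fell and 28.5% that rose. In a bulk sample, fewer cells of a type and less RNA per cell cannot be told apart. The median log2 change was -1.82, beside 0.02 over all tested genes, and the range was -2.67 to -0.81. The largest adjusted p of the 41 was 2.03e-08. The mean with LPS was 22.7% of the untreated mean for the median gene, from 8.63% for Cenpf to 56.4% for Incenp. It was at 50% or less in 38 genes (5.6% of all tested genes) and at 25% or less in 23 (1.61%). The libraries of the 2 groups did not overlap in any of the 41, always with the LPS libraries lower (38.1% of all tested genes).

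**Figure D2:**
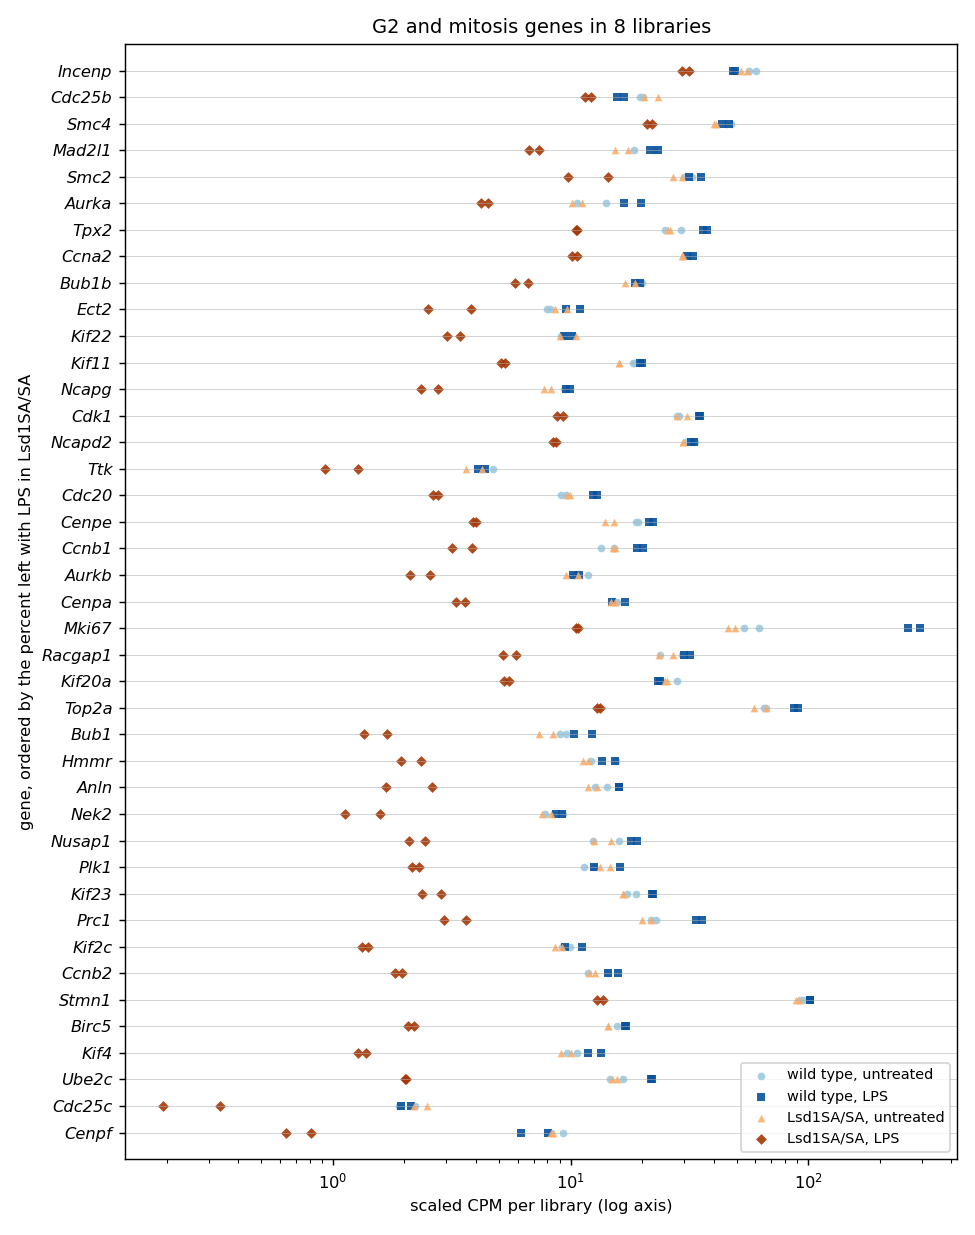
Scaled CPM on a log axis (x) of the 41 genes (y) in the 8 libraries, with genes ordered by the percent of the untreated mean left with LPS in the knock-in. Brown diamonds are knock-in with LPS and lie left of all other points in each row; the 2 dark blue squares of Mki67 at 294 and 263 are wild type with LPS.

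Without LPS the genotypes were close. Between untreated knock-in and untreated wild type, 0 of the 41 genes passed the limma test in either direction, as did 0.00839% of all tested genes upward and 0.0% downward, and 5 of the 41 had an unadjusted p under 0.05. With edgeR on the recovered reads 0 of the 41 passed and 6 had an unadjusted p under 0.05, and with DESeq2 1 was lower and 5 had an unadjusted p under 0.05. The ratio of the means ran from 0.767 to 1.16 with a median of 0.935. The median log2 difference was -0.09, 33 of the 41 genes had a value below 0, and without replicate 1 of untreated wild type 2 of the 41 were called lower. The smallest adjusted p was 0.127, shared by Cenpe (log2 difference -0.36) and Mki67 (-0.27). The libraries of the 2 untreated groups did not overlap in 17 genes with the knock-in lower (22.5% of all tested genes) and in 4 with the knock-in higher (21.4%).

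With LPS in both genotypes, all 41 genes were lower in the knock-in, against 36.8% of all tested genes lower and 38.5% higher. The median log2 difference was -1.94 and the largest adjusted p was 0.000118. The median gene in the knock-in was at 18.0% of wild type, from 3.82% for Mki67 to 73.3% for Cdc25b, 39 genes were at 50% or less (11.7% of all tested genes) and 26 at 25% or less (4.66%). The libraries of the genotypes did not overlap in any of the 41 (42.4% of all tested genes with the knock-in lower). The difference between the 2 LPS effects, tested as an interaction, was negative in all 41 genes with a median of -1.91 (largest adjusted p 0.000411), against 31.8% of all tested genes called in each direction. The comparisons with LPS share the knock-in LPS libraries, so the counts of 41 are not independent of each other.

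**Figure D3:**
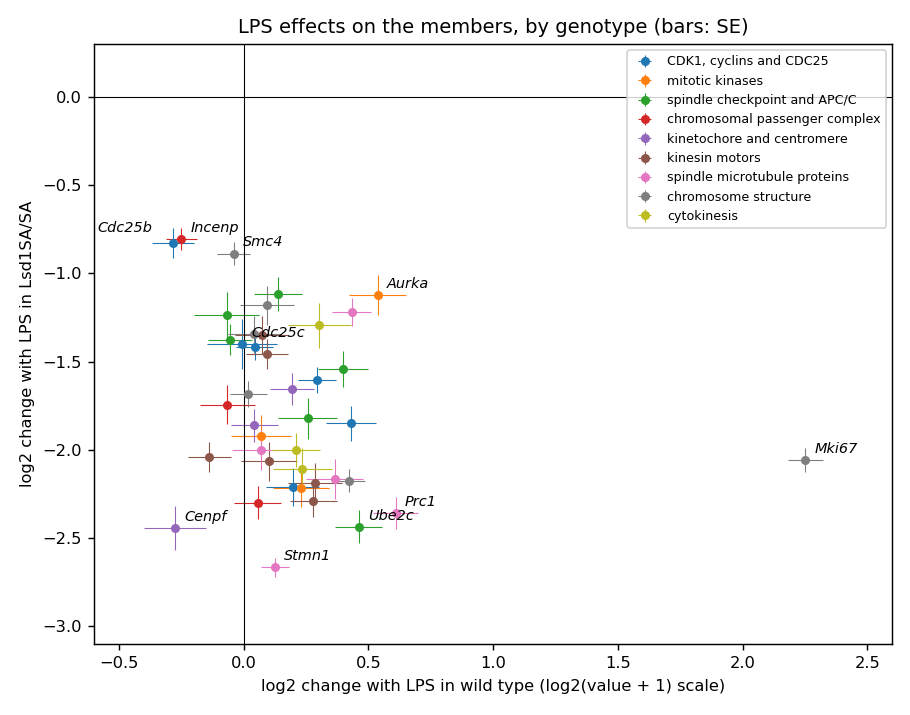
Log2 change with LPS in wild type (x axis) and in Lsd1SA/SA (y axis) of the 41 genes on the log2(value + 1) scale, coloured by role, with standard errors as bars. All points lie below 0 on the y axis, from -0.81 to -2.67, and Mki67 at 2.25 lies far to the right of the others on the x axis.

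Among the genes that drive entry into mitosis, Cdk1, Ccna2, Ccnb1, Ccnb2, Cdc25b and Cdc25c, all 6 fell with LPS in the knock-in, and Cdc25b was left at the highest share of its untreated level. Ccna2 encodes cyclin A2 and had the highest mean of this group. It read 29.9 and 31.7 in untreated wild type, 31.0 and 32.6 in wild type with LPS, 29.4 and 29.6 in untreated knock-in and 10.7 and 10.1 in knock-in with LPS. The other 6 libraries lay between 29.4 and 32.6, and the knock-in LPS libraries were at 35.3% of the untreated knock-in (log2 change -1.42, limma adjusted p = 4.22e-14). Cdk1 read 28.6 and 28.0 in untreated wild type, 35.0 and 34.7 in wild type with LPS, 28.1 and 30.8 in untreated knock-in and 8.76 and 9.26 in knock-in with LPS. It rose in wild type (0.29 on the log2 scale, limma adjusted p = 0.00169) and fell to 30.6% in the knock-in. Ccnb1, one of the B-type cyclins that bind CDK1, also rose in wild type (log2 change 0.43) and fell to 23.1% in the knock-in, and Ccnb2 fell to 15.2%.

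The CDC25 phosphatases, which remove inhibitory phosphates from CDK1, stood at opposite ends of this group. Cdc25b read 19.6 and 20.3 in untreated wild type, 16.8 and 15.6 in wild type with LPS, 20.5 and 23.3 in untreated knock-in and 11.5 and 12.2 in knock-in with LPS. It fell in both genotypes: by 0.28 on the log2 scale in wild type (limma adjusted p = 0.00634, and 0.0589 when replicate 2 of the LPS-treated wild type was left out) and by 0.83 in the knock-in (adjusted p = 1.39e-08). It showed the smallest difference of the 41 between the genotypes with LPS (log2 -0.42, adjusted p = 0.000118). Cdc25c had low values, at 1.89 and 2.22 in untreated wild type, 2.14 and 1.94 in wild type with LPS, 2.48 and 2.20 in untreated knock-in and 0.193 and 0.335 in knock-in with LPS. With LPS the knock-in was at 11.3% of its untreated mean, and the log2(value + 1) change of -1.40 understates this because the values are near the pseudocount of 1; edgeR on the recovered reads gave -3.13.

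The mitotic kinases Plk1, Aurka and Nek2 fell to 15.9%, 40.8% and 17.2% of the untreated knock-in. Aurka encodes the Aurora kinase of centrosomes and spindle poles. It read 10.7 and 14.1 in untreated wild type, 16.9 and 19.7 in wild type with LPS, 10.1 and 11.2 in untreated knock-in and 4.51 and 4.20 in knock-in with LPS. Both wild-type LPS libraries were above all other libraries (log2 change 0.54, SE 0.11, limma adjusted p = 0.000291), although the untreated wild-type libraries spread by a coefficient of variation of 19.6%, the highest of the 41 genes in that group. Nek2, a centrosome kinase, and Plk1, the polo-like kinase that acts from entry to exit, did not pass the limma test in wild type (log2 0.07 and 0.23). Plk1 was higher there with edgeR on the recovered reads (adjusted p = 0.0324).

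Of the spindle checkpoint genes Bub1, Bub1b, Mad2l1 and Ttk, none passed the limma test in wild type, and all 4 fell in the knock-in. With edgeR on the recovered reads Bub1 was higher with LPS in wild type (adjusted p = 0.0311). Mad2l1 encodes MAD2, which inhibits CDC20 until kinetochores are attached. It read 18.5 and 22.4 in untreated wild type, 21.7 and 23.4 in wild type with LPS, 17.5 and 15.3 in untreated knock-in and 7.37 and 6.67 in knock-in with LPS. With LPS 42.8% was left in the knock-in, more than for Bub1, at 19.2%. Ttk, the kinase that starts the checkpoint, read 4.25 and 4.70 in untreated wild type, 4.37 and 4.07 in wild type with LPS, 4.25 and 3.64 in untreated knock-in and 0.926 and 1.27 in knock-in with LPS. It fell to 27.9% (log2 change -1.24, limma adjusted p = 2.03e-08, the largest of the 41 in this comparison).

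The 2 genes of this role that promote anaphase rose in wild type. They were 33.3% of the role, near the 26.8% of all tested genes that rose. Ube2c, the ubiquitin-conjugating enzyme of the APC/C, read 14.7 and 16.6 in untreated wild type, 22.0 and 21.8 in wild type with LPS, 15.0 and 15.7 in untreated knock-in and 2.01 and 2.03 in knock-in with LPS. Its wild-type LPS libraries were the highest (log2 change 0.46, SE 0.09, limma adjusted p = 0.000191), and the knock-in LPS libraries were the lowest, at 13.2% of the untreated knock-in and 9.21% of wild type with LPS. Cdc20, the APC/C activator, rose in wild type by 0.40 and fell to 27.7% in the knock-in. The exons of Ube2c overlap those of Tnnc2 on the opposite strand, and the strand setting of the counting is not given in the sources used here, so reads of the 2 genes cannot be told apart where they overlap. The same holds for the opposite-strand overlaps of Kif4 with Pdzd11, Prc1 with Rccd1, Kif20a with Cdc23, Ncapg with Lcorl, Ccna2 with Exosc9, Plk1 with Gm44985, Nek2 with Gm38037, Nusap1 with Oip5, Cdc20 with Elovl1 and Cdc25b with Spef1, and Stmn1 overlaps Gm23634 on its own strand.

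The chromosomal passenger complex corrects wrong attachments and then moves to the midzone, and its 3 genes fell with LPS in the knock-in to 14.8% to 56.4% of the untreated level. Incenp, its scaffold, read 56.2 and 60.4 in untreated wild type, 48.5 and 49.2 in wild type with LPS, 55.3 and 52.3 in untreated knock-in and 31.4 and 29.3 in knock-in with LPS. It fell by 0.25 on the log2 scale in wild type (limma adjusted p = 0.00136) and by 0.81 in the knock-in (adjusted p = 8.68e-11), the smallest fall of the 41 there. The kinase Aurkb was left at 23.0% and Birc5, which encodes survivin, at 14.8%. Neither passed in wild type (log2 -0.07 and 0.06).

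At kinetochores and centromeres, none of Cenpa, Cenpe and Cenpf passed the limma test in wild type. With edgeR on the recovered reads Cenpe was higher with LPS there (adjusted p = 0.0201). Cenpf, a large protein of the outer kinetochore, read 9.26 and 8.24 in untreated wild type, 8.02 and 6.19 in wild type with LPS, 8.45 and 8.29 in untreated knock-in and 0.810 and 0.635 in knock-in with LPS. The knock-in LPS libraries were 11.6-fold below the untreated knock-in, the largest fold fall of the 41 (log2(value + 1) change -2.45, SE 0.12, limma adjusted p = 2.97e-14). Cenpe, a kinesin that carries chromosomes to the spindle equator, read 18.8 and 19.2 in untreated wild type, 22.3 and 21.5 in wild type with LPS, 15.2 and 13.9 in untreated knock-in and 3.99 and 3.88 in knock-in with LPS. It fell to 27.0% with LPS in the knock-in, and Cenpa, the histone H3 variant of centromeres, to 22.7%.

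The kinesin motors Kif11, Kif23, Kif20a, Kif2c, Kif4 and Kif22 move or depolymerise spindle microtubules. Kif20a, which acts in the midzone, read 24.0 and 28.1 in untreated wild type, 23.2 and 23.8 in wild type with LPS, 25.4 and 25.0 in untreated knock-in and 5.52 and 5.24 in knock-in with LPS. Both wild-type LPS libraries were below the untreated ones, a difference that did not pass (log2 -0.14, limma adjusted p = 0.177), and 21.3% was left in the knock-in. Kif23, the motor subunit of the centralspindlin complex, read 17.3 and 18.9 in untreated wild type, 22.2 and 22.1 in wild type with LPS, 16.6 and 16.6 in untreated knock-in and 2.37 and 2.84 in knock-in with LPS. Kif4, a chromosome-bound kinesin, read 9.67 and 10.7 in untreated wild type, 13.4 and 11.9 in wild type with LPS, 9.09 and 10.1 in untreated knock-in and 1.27 and 1.38 in knock-in with LPS. Both rose slightly in wild type (log2 0.28 and 0.28, adjusted p = 0.014 and 0.0289) and fell to 15.7% and 13.8% in the knock-in. Neither rise passed without replicate 1 of untreated wild type (adjusted p = 0.118 and 0.177) or when replicate 1 of the LPS-treated wild type was left out (0.0546 and 0.216). Kif2c was left at 15.4%, Kif11, which pushes the spindle poles apart, at 32.5% and Kif22 at 33.0%.

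Of the spindle microtubule proteins, Tpx2, Nusap1 and Prc1 rose in wild type, and all 5 fell in the knock-in. Prc1, which bundles the antiparallel microtubules of the midzone, read 21.8 and 23.0 in untreated wild type, 35.7 and 33.7 in wild type with LPS, 21.8 and 20.0 in untreated knock-in and 3.63 and 2.95 in knock-in with LPS. It rose 1.55-fold in wild type (0.61 on the log2 scale, SE 0.09, limma adjusted p = 3.22e-06), and with LPS the knock-in was at 9.47% of wild type. Stmn1 encodes stathmin, which destabilises microtubules. It read 92.2 and 94.9 in untreated wild type, 102 and 102 in wild type with LPS, 88.8 and 91.4 in untreated knock-in and 12.9 and 13.8 in knock-in with LPS. Its wild-type change did not pass (log2 0.12, adjusted p = 0.0631), and its fall in the knock-in was the largest of the 41 on the log2(value + 1) scale (-2.67, SE 0.06, limma adjusted p = 1.95e-21). Tpx2, which activates Aurora A on the spindle, was left at 40.7%, Nusap1 at 16.6% and Hmmr at 18.6%. The rise of Nusap1 in wild type (log2 0.37) did not pass without replicate 1 of untreated wild type (adjusted p = 0.204) or when replicate 2 of the LPS-treated wild type was left out (0.0581).

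Chromosome structure genes held both the strongest and some of the weakest contrasts. Mki67 read 49.1 and 45.9 in untreated knock-in and 10.7 and 10.6 in knock-in with LPS, which left 22.4% (log2 change -2.06, limma adjusted p = 9.32e-18). This was near the median of the 41. The 26.2-fold difference of Mki67 from wild type with LPS combined this fall with the largest rise in wild type. Its untreated level, at 82.2% of untreated wild type in the knock-in, also entered it, a difference that did not pass. Top2a, the topoisomerase that untangles sister chromatids, read 66.5 and 65.0 in untreated wild type, 86.8 and 90.2 in wild type with LPS, 66.3 and 59.4 in untreated knock-in and 13.3 and 13.0 in knock-in with LPS. It rose in wild type (0.42 on the log2 scale, limma adjusted p = 3.18e-06) and fell to 20.9% in the knock-in.

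The condensin subunits Smc2, Smc4, Ncapg and Ncapd2 compact chromosomes, and none of them passed in wild type. Smc4, an ATPase subunit of both condensins, read 45.1 and 47.5 in untreated wild type, 46.5 and 43.4 in wild type with LPS, 40.97 and 40.2 in untreated knock-in and 22.0 and 20.9 in knock-in with LPS. With LPS 52.9% was left in the knock-in, the third-highest share of the 41 after Incenp and Cdc25b. Smc2, its partner, was left at 42.8%, while Ncapg at 31.8% and Ncapd2 at 28.8% are subunits of condensin I.

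The cytokinesis genes Anln, Ect2 and Racgap1 build and place the contractile ring. Racgap1, the GTPase-activating partner of Kif23, read 23.8 and 29.6 in untreated wild type, 31.8 and 29.9 in wild type with LPS, 27.1 and 23.5 in untreated knock-in and 5.90 and 5.22 in knock-in with LPS. It did not pass in wild type (log2 0.21, adjusted p = 0.0685) and was left at 22.0% in the knock-in. Anln was left at 17.2% and Ect2, the exchange factor for RhoA, at 34.8%. Ect2 rose in wild type (log2 0.30, adjusted p = 0.0433), a call lost without replicate 1 or replicate 2 of untreated wild type (adjusted p = 0.125 and 0.0875) and when replicate 1 of the LPS-treated wild type was left out (0.255).

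Levels of different genes were compared per kilobase of merged exons. In untreated wild type Stmn1 was the highest at 65.4 scaled CPM per kilobase, followed by Incenp at 18.0, Top2a at 12.6 and Smc4 at 10.7, and Cenpf was the lowest at 0.786. In wild type with LPS, Mki67 moved from 5.74 to 27.7, above Top2a at 16.9. In knock-in with LPS, Incenp at 9.34 and Stmn1 at 9.32 were about level and Mki67 was at 1.06. Across the 41 genes, Spearman's rho of the percent left in the knock-in was 0.19 with exon length, 0.34 with the untreated knock-in level and 0.22 with that level per kilobase. It was -0.19 between the wild-type fold and the percent left. These values describe 41 genes of the same 8 libraries.

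The genes with and without a promoter motif were also set side by side. With LPS in the knock-in the median percent left was 22.4% for the 27 genes with a CHR in the window and 20.1% for the 6 without. It was 22.9% for the 28 with CCAAT and 16.6% for the 5 without, and 22.7% for the 25 with both and 17.2% for the 8 others. It was 30.6% for the 3 with an E2F motif and 21.4% for the 30 without. The ranges overlapped in each case, and the differences were not tested. The 3 genes with an E2F motif, Cdk1 at 30.6%, Ncapd2 at 28.8% and Ncapg at 31.8%, lay close together.

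Summed over the 41 genes, the level was 871 and 935 in untreated wild type, 1248 and 1199 in wild type with LPS, 852 and 834 in untreated knock-in and 246 and 231 in knock-in with LPS. The wild-type rise was carried largely by Mki67. Without it the sums were 817 and 873 in untreated wild type, 954 and 936 in wild type with LPS, 803 and 788 in untreated knock-in and 235 and 221 in knock-in with LPS.

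**Figure D4:**
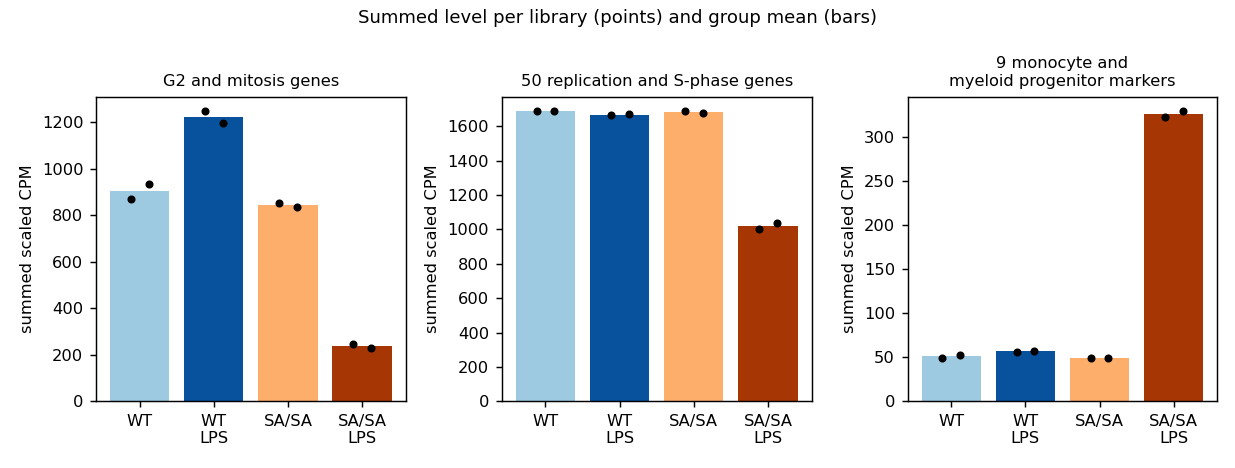
Summed scaled CPM (y axis) per library (points) and group mean (bars) for the 41 G2 and mitosis genes, for 50 replication and S-phase genes, and for 9 monocyte and myeloid progenitor markers, in the 4 groups. The 41 genes were lowest in knock-in with LPS (246 and 231), where the monocyte and progenitor markers were highest (322.5 and 329.4, most of it Ly6c2).

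A further list of 73 G2 and mitosis genes, taken by function and outside the 41, moved in the same direction in the knock-in. With LPS 63 fell, 2 rose and 8 did not pass, with a median of -1.10, where 28.3% of all tested genes fell and 28.5% rose. The largest falls were Iqgap3 at -2.34, Kntc1 at -2.21, Mastl at -2.09, Cdca3 at -2.07 and Ckap2l at -2.05. The 2 that rose, named after their values were seen, were Ncapg2, a condensin II subunit, at 1.30 and Pttg1, which encodes securin, at 1.19. In wild type 12 of the 73 rose (16.4%, against 26.8% of all tested genes) and 19 fell (26.0%, against 30.7%), with a median of 0.00, so neither share was above the background. Cks2, a small partner of CDK1, rose by 1.26 and Fzr1, the APC/C activator of late mitosis and G1, by 0.90. Cdca7 fell by 1.30, Wee1, the kinase that holds CDK1 inactive, by 1.08, and Fbxo5, an APC/C inhibitor, by 0.85. In knock-in against wild type with LPS 62 were lower (84.9%, against 36.8% of all tested genes) and 7 higher (9.59%, against 38.5%).

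The lists of APC/C and cohesin genes, which are used outside mitosis as well, had medians nearer to 0. Of 13 APC/C subunits and partners, 7 fell (53.8%) and 3 rose (23.1%) with LPS in the knock-in, with a median of -0.18. Of 10 cohesin genes 7 fell (70.0%) and 0 rose, with a median of -0.27. Of all tested genes 28.3% fell and 28.5% rose there, so the share that fell was above the background in both lists. In wild type, 4 APC/C genes rose and 3 fell, with Ube2s at 0.78 and Cdc27 at 0.67, and 3 cohesin genes rose and 2 fell. The shares that rose (30.8% and 30.0%) were near the 26.8% of all tested genes, and those that fell (23.1% and 20.0%) were below the 30.7%.

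Genes of the DNA replication and S-phase list were mostly lower in the knock-in with LPS. Of 50, 44 fell (88.0%, against 28.3% of all tested genes) and 1 rose (2.0%, against 28.5%), with a median of -0.68. The largest falls were Rrm2, a subunit of ribonucleotide reductase, at -2.17, Tk1 at -2.08, Uhrf1 at -2.06, Pole at -1.84 and Mcm5, a subunit of the replicative helicase, at -1.63. In wild type 15 of the 50 fell (30.0%, against 30.7% of all tested genes) and 3 rose (6.0%, against 26.8%), with a median of -0.10 and with Gins3 at -0.90, E2f2 at -0.81 and Cdt1 at -0.55. In knock-in against wild type with LPS 37 were lower (74.0%, against 36.8% of all tested genes) and 5 higher (10.0%, against 38.5%).

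Of 22 regulators around MuvB, MYB and FOXM1, 11 fell and 4 rose with LPS in the knock-in, with a median of -0.23. Of all tested genes 28.3% fell and 28.5% rose there. The share of the regulators that fell was above this background, and the share that rose was below it. Foxm1, the G2 activator that works with MuvB, read 13.2 and 15.8 in untreated wild type, 13.8 and 14.8 in wild type with LPS, 14.9 and 14.8 in untreated knock-in and 3.07 and 2.89 in knock-in with LPS (log2 change -1.99 in the knock-in, limma adjusted p = 2.58e-14). The other 3 groups overlapped. Mybl2, which encodes B-MYB, fell by 1.53, the repressors E2f7 and E2f8 by 1.48 each and Tfdp2 by 1.20. In wild type E2f8 rose by 0.73 and Dyrk1a, the kinase that assembles DREAM, by 0.56, and in all 6 of the 22 rose (27.3%, against 26.8% of all tested genes) and 3 fell (13.6%, against 30.7%).

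Of 14 listed G1 regulators 12 were tested, of which 8 fell and 2 rose with LPS in the knock-in (median -0.24). Cdkn1c, a CDK inhibitor, fell by 2.79, Myc by 1.76, the CDK inhibitor Cdkn2c by 1.46 and Ccnd1 by 1.32, while Ccnd2, which encodes cyclin D2, rose by 1.47. The share that fell there was 66.7%, against 28.3% of all tested genes, and the share that rose was 16.7%, against 28.5%. In wild type 5 of the 12 rose and 3 fell, where 26.8% of all tested genes rose and 30.7% fell. Cdkn1a, which encodes the CDK inhibitor p21, rose by 2.56, Ccnd2 and Myc by 1.52 each and Cdk6 by 1.25, and Cdkn1b fell by 0.82. Cdkn1a was at 250.4 and 265 in untreated knock-in and at 275 and 284 in knock-in with LPS. In the untreated comparison 0 genes of any of these lists passed.

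**Figure D5:**
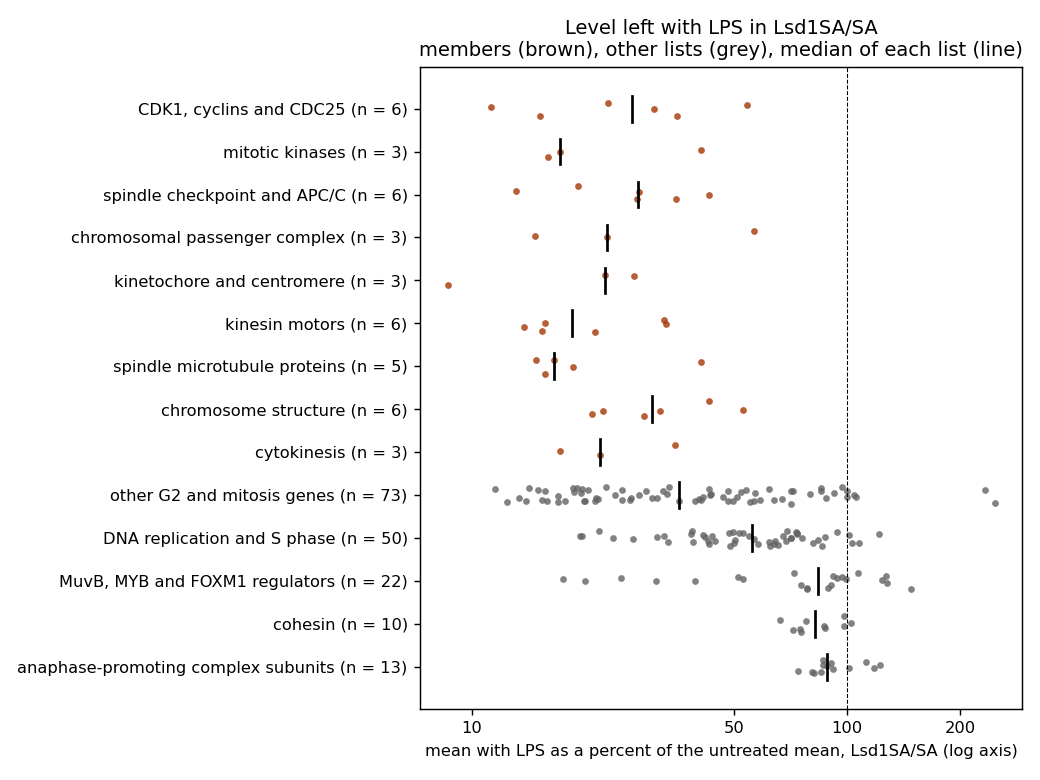
Mean with LPS as a percent of the untreated mean in Lsd1SA/SA (x axis, log) for each gene of the 9 role groups (brown) and of the other lists (grey), with the median of each list as a line and 100% dashed. The role groups have medians of 16.6% to 30.3%, the 73 other G2 and mitosis genes 35.7%, the S-phase list 55.8%, and the APC/C and cohesin lists 88.2% and 82.2%.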

How the data were processed

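RNA-seq of 8 libraries (4 groups of 2, taken from the sample labels) was analysed. The authors deposited a normalized signal per gene, with each read count divided by a scaled library size; whole reads were recovered from the steps of these values (100% whole within 0.001). Of recovered counts of 1 to 19, 69.5% to 71.5% were even in a library, so a fragment may have been counted as 2 reads; depths and read numbers would then be too high, and the chi-square values and the calls of edgeR and DESeq2, which take counts as independent, would be affected. The submitters' processing notes name the mm9 build and, as tools, edgeR, bedtools and TopHat2 2.0.9; counting rule, strand and annotation were not given in the sources used here. Exon lengths and overlaps came from GENCODE vM21 on another build and promoters from RefSeq (GRCm38.p6). 12 of the 41 genes have exons that overlap another gene, 11 of them on the opposite strand.

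A gene was tested where 2 or more libraries reached a value of 1 (11919; 5996 of 23366 were at 0 in every library). Values were tested as log2(value + 1) with limma 3.58.1 in R 4.3.3, 2-sided, in a model of 4 group means with a variance trend (4 residual and 19.1 prior degrees of freedom), with Benjamini-Hochberg adjustment over all tested genes in each of 5 comparisons. A fold change on this scale understates the change of low genes. edgeR 4.0.16 and DESeq2 1.42.0 on the recovered reads were alternatives; edgeR called 3528 genes higher and 3314 lower with LPS in wild type, and 3298 and 3481 in the knock-in. On simulated data for LPS in wild type (11729 genes), limma recovered 44 of 50 genes changed 1.5-fold and 49 of 50 changed 2-fold, with 8 false calls. The simulation changed few genes, drew reads as independent and gave every gene the same spread between libraries. It checks that the fit runs as intended and does not give the error rate in these data.

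The genes and lists were chosen with earlier results of these data known. Values in every library are given for the highest gene of each role and the 4 highest and 4 lowest changes of each comparison; Cdk1 and Top2a, whose promoters are shown, and Foxm1, Ly6c2, Cdkn1a, Tnf, Il1b and Nfkbia were added after their values were seen. Of other lists at most 5 genes are named per comparison. Replicates differed by more than sampling noise (mean chi-square per gene 5.39 to 12.7), so each counted as 1. Alternatives were other pseudocounts, filters, scalings and fits, and each library left out.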

Additional observations from a re-analysis of the deposited data

Results flagged for a closer look

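The LPS effect differed between the genotypes in all 41 G2 and mitosis genes, which was tested as the limma interaction (41 lower, against 31.8% of all tested genes). The smallest differences on the log2(value + 1) scale were -0.54 for Cdc25b, -0.55 for Incenp, -0.85 for Smc4 and -1.17 for Ttk, the last of them at values near the pseudocount. The largest on this scale were -4.31 for Mki67, -2.97 for Prc1, -2.90 for Ube2c and -2.79 for Stmn1. The order depends on the scale for genes with low values. Cenpf was at -2.17 and Cdc25c at -1.40 here, and at -3.27 and -3.15 with edgeR on the recovered reads. Cdc25b and Incenp are the 2 genes that also fell in wild type, and Mki67, Prc1 and Ube2c rose there. Each value rests on the knock-in LPS libraries, whose animals differed in sex from those of the other groups and in which the early LPS response genes Tnf, Il1b and Nfkbia were far below wild type with LPS.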

How the results depend on the processing

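With LPS in the knock-in, between the genotypes with LPS and in the interaction, all members tested were called lower in each alternative run (41, or 39 under a filter at a value of 5, which removed 2). Their median moved with the scale: for LPS in the knock-in it was -1.98 at a pseudocount of 0.5, -1.56 at 2, -1.71 under quantile normalization, -2.15 with edgeR, -2.13 with DESeq2 and -1.83 to -1.72 with a library left out. Between the genotypes with LPS it was -2.06 and -1.74 at these pseudocounts, -2.09 under a filter at a value of 5, -2.51 with edgeR and -2.50 with DESeq2. For the interaction it was -2.03, -1.69, -2.33 with edgeR and -2.31 with DESeq2. With LPS in wild type, 9 (without replicate 1 of untreated wild type) to 19 (edgeR) members were higher and 1 (leaving out replicate 2 of the LPS-treated wild type) to 3 lower; 16 were higher and 3 lower without the knock-in LPS libraries. The median was 0.20 under quantile normalization and 0.057 to 0.21 with a library left out, lowest without replicate 1 of untreated wild type and highest without replicate 2. Kif4, Nusap1 and Ect2 did not pass without the filter on low values (adjusted p = 0.0777, 0.0641 and 0.167), nor Ect2 at a pseudocount of 0.5 (0.0527). Between untreated genotypes, 0 to 2 members were lower with a library left out (2 without replicate 1 of untreated wild type, where 263 of all genes were called higher and 220 lower, against 1 and 0) and 1 with DESeq2 (32 and 39), and the median was -0.15 to -0.034. A robust variance trend called 4 higher and 14 lower of all genes there, and a fit of the 2 groups alone 5 and 7. The causes were not tested. Replicate numbers are not stated to pair libraries, and deviations of libraries with the same number correlated at -0.108 to 0.135. The replicate block left the counts of members at 13 higher and 2 lower in wild type and 41 lower in the knock-in, with 3196 and 3661 of all genes called in wild type against 3199 and 3662. On the gene strand alone, CCAAT was found in 18 of 33 windows and the CHR in 21.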
